A study of Homo sapiens with 12 samples.

Results

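The 10 genes described here are the cadherins CDH1, CDH2, CDH6 and CDH11, the intermediate filament gene VIM, and the transcription factors SNAI1, SNAI2, ZEB1, ZEB2 and TWIST1. They were taken by name from the 38021 gene names of a table of RNA-seq counts, and each name stood on 1 line. RNA was sequenced from 786O cells, an established line from a clear cell renal carcinoma that lacks working VHL, and from WT8 cells, which are 786O cells that express wildtype VHL. Each line carried a puromycin-selected lentiviral shRNA, either a scrambled control (shControl) or 1 sequence against BMAL1 (shBMAL1). The 4 groups, 786O shControl, 786O shBMAL1, WT8 shControl and WT8 shBMAL1, had 3 libraries each, which the labels call biological replicates. All cultures grew in the same serum-containing medium. WT8 is a separate line, so VHL and any other difference between the lines cannot be told apart, and the action of BMAL1 cannot be told apart from that of the single shRNA.

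Cadherins are calcium-dependent adhesion proteins that join cells at adherens junctions, where their tails bind catenins. Epithelia typically carry E-cadherin (CDH1), while the renal tubule also uses N-cadherin (CDH2) and K-cadherin (CDH6). OB-cadherin (CDH11) is found in the mesenchyme of the developing kidney. The SNAI, ZEB and TWIST factors are known as drivers of the epithelial-mesenchymal transition (EMT), in which CDH1 is repressed through E2-box sites while CDH2 and vimentin are gained.

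Total counts ran from 33182005 to 36477484 per library, and 15127 to 15953 genes had at least 10 counts. Values are given as counts or as CPM, counts scaled to a common library size after TMM normalization. ARNTL, the older name of BMAL1, had 378 to 464 counts in 786O shControl and 128 to 142 in 786O shBMAL1, and 309 to 355 and 56 to 72 in the same order in WT8. VHL had 602 to 740 counts in 786O and 23607 to 37514 in WT8, so both genes matched the labels. The fall of ARNTL was larger in WT8 (log2 -2.48, SE 0.14) than in 786O (log2 -1.62, SE 0.13). The change in WT8 minus that in 786O was -0.86 (SE 0.19, edgeR adjusted p 0.000369), so depletion was unequal between the lines. VHL itself was lower with shBMAL1 in WT8 (log2 -0.60, SE 0.05, edgeR adjusted p 6.67e-13). Of the renal tubule markers, PAX8, PAX2, LHX1 and CUBN were detected and LRP2 had at most 3 counts in any library. PAX8, a transcription factor of the tubule, had mean levels of 313 CPM in 786O shControl, 351 CPM in 786O shBMAL1, 1330 CPM in WT8 shControl and 948 CPM in WT8 shBMAL1. From 786O shControl to WT8 shControl, PAX2 went from 13.5 to 24.8 CPM and CUBN from 0.682 to 1.58 CPM. LHX1 went the other way, from 11.1 to 2.22 CPM. The endothelial markers together stayed at or below 1.74 CPM, and PTPRC and CD3E, the defining leukocyte genes, had at most 1 count. Of 5 leukocyte markers, 3 had at most 3 counts everywhere, and the sum of 17.5 to 43.1 CPM came nearly all from CD68, a lysosomal gene. The 5 fibroblast markers summed to 2.96 to 11.8 CPM, with DCN and DPT at no more than 3 counts. The part of these markers in the results was not tested.

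Promoter sequences were available from RefSeq (GRCh38.p14, 250 bases before to 50 after a start site) for 4 of the 10 genes, CDH2, VIM, ZEB1 and ZEB2. CDH1, CDH6, CDH11, SNAI1, SNAI2 and TWIST1 had no entry in the table. The first start site of CDH2 and those of VIM and ZEB2 are shown because these genes were all lower in WT8 shControl than in 786O shControl, and because BMAL1 and HIF2α, the factors of the study, recognise short related motifs. Capitals mark ACGTG or GCGTG on either strand, the core of the HIF site. The windows lie at chr18:28177081-28177380 (minus strand) for CDH2, chr10:17227991-17228290 (plus strand) for VIM and chr2:144520070-144520369 (minus strand) for ZEB2.
CDH2: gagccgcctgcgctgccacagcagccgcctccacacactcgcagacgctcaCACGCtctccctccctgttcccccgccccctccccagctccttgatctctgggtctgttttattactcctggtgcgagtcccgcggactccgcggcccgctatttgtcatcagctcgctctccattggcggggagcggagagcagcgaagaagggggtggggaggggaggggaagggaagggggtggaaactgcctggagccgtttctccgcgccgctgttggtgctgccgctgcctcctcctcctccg
VIM: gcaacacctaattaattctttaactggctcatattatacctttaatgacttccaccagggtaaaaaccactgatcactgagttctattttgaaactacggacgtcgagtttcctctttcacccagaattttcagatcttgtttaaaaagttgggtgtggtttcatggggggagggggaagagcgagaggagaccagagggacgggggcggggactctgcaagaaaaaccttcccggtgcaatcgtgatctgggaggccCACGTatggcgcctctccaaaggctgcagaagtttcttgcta
ZEB2: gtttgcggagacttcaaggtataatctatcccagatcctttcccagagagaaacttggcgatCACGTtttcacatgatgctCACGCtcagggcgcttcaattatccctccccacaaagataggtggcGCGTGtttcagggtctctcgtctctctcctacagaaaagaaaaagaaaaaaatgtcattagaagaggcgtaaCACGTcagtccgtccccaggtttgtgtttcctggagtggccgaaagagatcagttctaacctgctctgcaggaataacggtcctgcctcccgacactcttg
The HIF core occurred 1 time in the CDH2 window shown, 1 time in the VIM window and 4 times in the ZEB2 window. The window of the second CDH2 start site had none. For ZEB1, which was not called between the lines, the core occurred 3, 1 and 2 times at start sites 2, 5 and 6. The other ZEB1 windows had none. The HIF core is common, being present in 48.4% of 35116 promoter windows of this length. The E-box CACGTG, which contains the HIF core and is bound by BMAL1 with CLOCK, occurred in none of the 11 windows of the 4 genes and in 7.26% of all windows. The E2-box, CAGGTG or CACCTG, to which SNAI and ZEB factors bind, was in 20.6% of all windows. It was absent from the CDH2, VIM and ZEB2 windows and present in 2 of the 7 start-site windows of ZEB1. These matches are descriptions of the letters and not of bound sites.

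To ask how the adhesion genes respond to BMAL1 depletion where VHL is absent, shBMAL1 was compared with shControl in 786O cells. CDH6 and CDH11 rose about 3-fold, CDH1 rose from a few counts, CDH2 fell slightly, SNAI1, SNAI2 and ZEB1 rose by 1.28-fold to 1.61-fold, and VIM and ZEB2 did not pass the test. Of the 10 genes, 7 were called at an adjusted p under 0.1, 6 higher and 1 lower. Among all 16838 genes tested, 48.9% were called (24.5% higher and 24.4% lower). CDH1, CDH6 and CDH11 were called with a change over 2-fold, beside 6.83% of all genes tested. TWIST1 was not tested, and CDH11 passed the filter on low counts through 786O libraries alone. In bulk RNA, fewer cells that express a gene and less of its RNA per cell cannot be told apart. Groups were free of overlap for 7 of the genes, against 50.9% of all genes tested. The median log2 change was 0.56 over the 9 genes tested and 0.00 over all genes tested.

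CDH6 (ENSG00000113361, GRCh37 chromosome 5, 31193793 to 31329253, plus strand) encodes K-cadherin, a type II cadherin of the fetal tubule that is also carried by renal carcinomas. It had 6513, 6503 and 6309 counts in 786O shControl and 18462, 17383 and 17956 in 786O shBMAL1. In WT8 it had 2194, 2275 and 2057 counts with shControl and 1467, 1361 and 1308 with shBMAL1. Within each line the groups did not overlap, and they moved in opposite directions. In 786O cells the level went from 185.1 ± 5.36 CPM (SD, n = 3) to 515.4 ± 14.9 CPM, a log2 change of 1.48 (SE 0.05, edgeR adjusted p 3.78e-23). In WT8 it went from 60.5 ± 5.09 to 36.8 ± 2.02 CPM, a log2 change of -0.72 (SE 0.05, edgeR adjusted p 5.79e-14). The change in WT8 minus that in 786O, the interaction, was -2.19 (SE 0.07, edgeR adjusted p 6.26e-24). WT8 shControl was 3.06-fold below 786O shControl (log2 -1.61, SE 0.05, edgeR adjusted p 2.8e-25). All 4 groups stood apart in the order 786O shBMAL1, 786O shControl, WT8 shControl, WT8 shBMAL1.

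CDH11 (ENSG00000140937, chromosome 16, 64977656 to 65160015, minus strand) encodes OB-cadherin, typical of mesenchymal cells and osteoblasts. It had 332, 321 and 290 counts in 786O shControl and 1095, 926 and 1124 in 786O shBMAL1. It had 0 counts in the 3 WT8 shControl libraries and 0, 0 and 2 in WT8 shBMAL1. In 786O cells it rose from 9.04 ± 0.731 to 30.1 ± 3.04 CPM (SD, n = 3; log2 1.74, SE 0.11, edgeR adjusted p 4.46e-15). Against a floor of 3 counts per library, it was at least 108-fold lower in WT8 shControl than in 786O shControl. A library at 0 still allows 0.0797 to 0.0875 CPM at these depths, a counting limit only, and no fold with shBMAL1 can be given in WT8. The nearest genes tested on either side, named after their values were seen, were GOT2, 6.21 Mb away, and LINC00920, 1.28 Mb away. GOT2 had a mean of 182 CPM in 786O shControl and 180 CPM in WT8 shControl, and LINC00920 had 2 to 12 counts in all libraries.

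CDH1 (ENSG00000039068, chromosome 16, 68771195 to 68869440, plus strand), the E-cadherin of epithelia, was close to the limit of detection in 3 of the 4 groups. It had 14, 5 and 3 counts in 786O shControl and 57, 44 and 69 in 786O shBMAL1. WT8 had 13, 8 and 11 counts with shControl and 5, 6 and 6 with shBMAL1. The 786O shBMAL1 libraries were above all others, while 786O shControl overlapped both WT8 groups. The level rose in 786O from 0.212 ± 0.172 to 1.63 ± 0.358 CPM (SD, n = 3; log2 2.93, SE 0.44, edgeR adjusted p 1.02e-06). This change was 3.79 without 786O shControl replicate 1, the library with 14 counts, and ran from 2.55 to 3.07 without any other 786O library. In WT8 the change of -0.95 (SE 0.54) was not called (edgeR adjusted p 0.124). The interaction was -3.88 (SE 0.70, edgeR adjusted p 1.69e-05). Between the lines with shControl, the log2 difference of 0.48 (SE 0.52) was not called (edgeR adjusted p 0.406), but without 786O shControl replicate 1 it was 1.34 and was called at 0.0486.

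CDH2 (ENSG00000170558, chromosome 18, 25512843 to 25757910, minus strand), the N-cadherin gained in EMT, fell slightly with shBMAL1 in 786O and was lower in WT8 than in 786O. It had 18967, 18342 and 18006 counts in 786O shControl and 15700, 15105 and 16411 in 786O shBMAL1. WT8 had 3823, 3815 and 3820 counts with shControl and 4778, 4609 and 4484 with shBMAL1. No groups overlapped, and the small effects of shBMAL1 had opposite signs in the lines. CDH2 fell by 0.23 on the log2 scale in 786O (SE 0.04, edgeR adjusted p 4.88e-05), from 529.9 ± 21.2 to 452.3 ± 18.4 CPM. It rose by 0.22 in WT8 (SE 0.05, edgeR adjusted p 8.31e-05), from 106.1 ± 3.91 to 123.4 ± 3.48 CPM, with an interaction of 0.45 (SE 0.06, edgeR adjusted p 2.37e-07). The difference between the lines was larger, 4.99-fold lower in WT8 shControl (log2 -2.32, SE 0.05, edgeR adjusted p 1.39e-31).

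**Figure D1:**
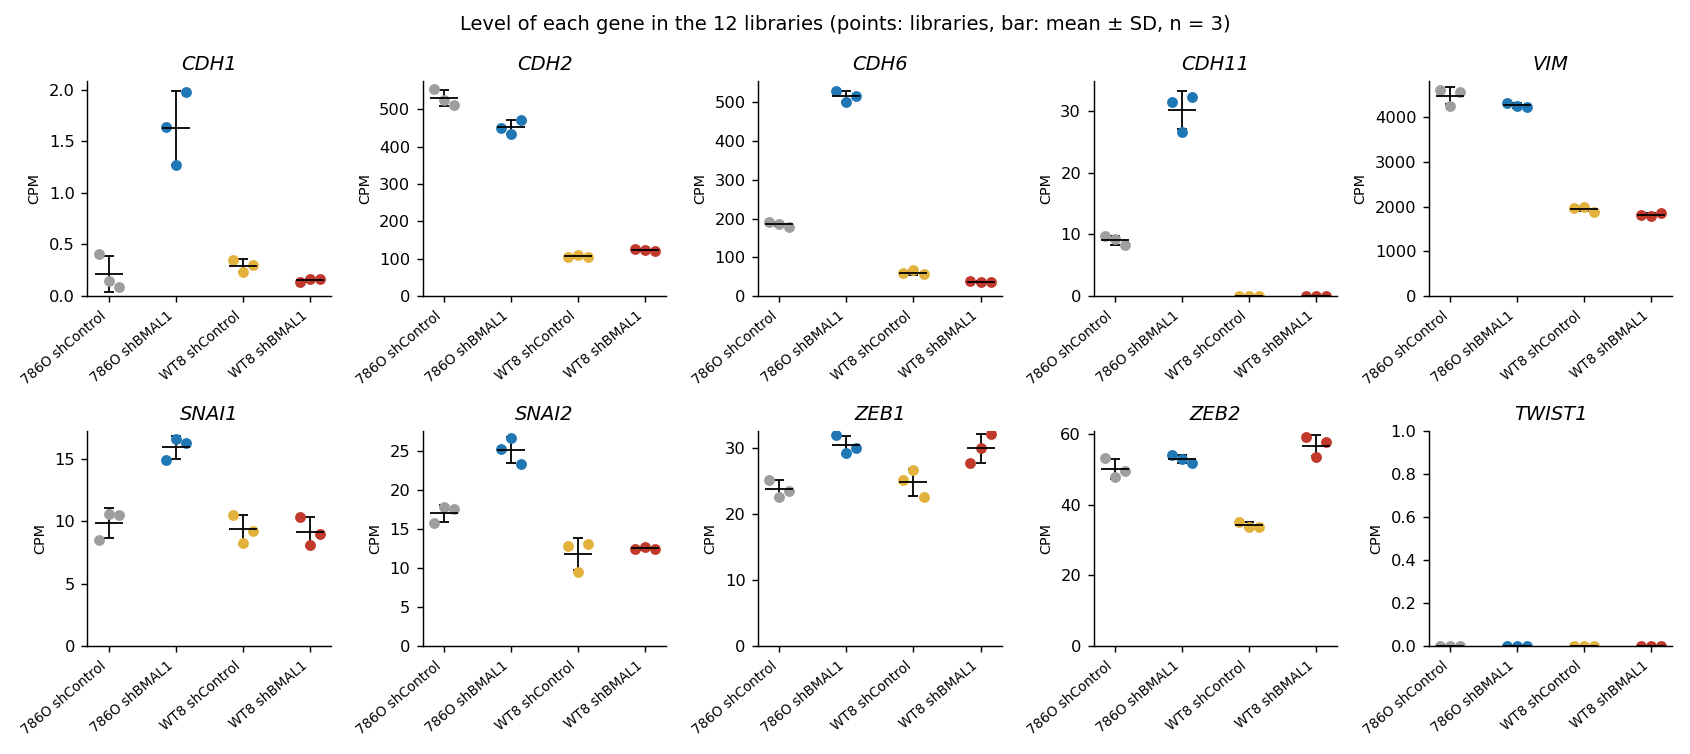
CPM of each of the 10 genes in the 12 libraries, on linear axes that start at 0, with points for libraries and bars for the mean ± SD of 3. CDH6, CDH11, CDH1, SNAI1 and SNAI2 were highest in 786O shBMAL1, CDH2 and VIM were higher in both 786O groups than in WT8, and TWIST1 was at 0 throughout.

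To compare cadherins with each other, CPM was divided by the length in kb of the canonical transcript in GENCODE 44. On this scale the 4 cadherins summed to 155.02 ± 6.02 CPM per kb (SD, n = 3) in 786O shControl and 177.8 ± 6.12 in 786O shBMAL1, and in WT8 to 33.6 ± 1.53 with shControl and 35.1 ± 1.10 with shBMAL1. In 786O shControl CDH2 made up 85.1% ± 0.177 of the sum and CDH6 14.0% ± 0.198. With shBMAL1 in 786O the share of CDH2 was 63.3% ± 0.779 and that of CDH6 34.0% ± 0.842. WT8 moved the other way, with CDH2 at 78.7% ± 0.837 in shControl and 87.6% ± 0.271 in shBMAL1, and CDH6 at 21.1% ± 0.859 and 12.3% ± 0.292. CDH11 contributed 0.866% ± 0.0409 in 786O shControl and 2.52% ± 0.173 in 786O shBMAL1. CDH1 stayed at or below 0.190% of the sum in all 4 groups, so its rise in 786O left it far below the other 3 cadherins of that line.

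**Figure D2:**
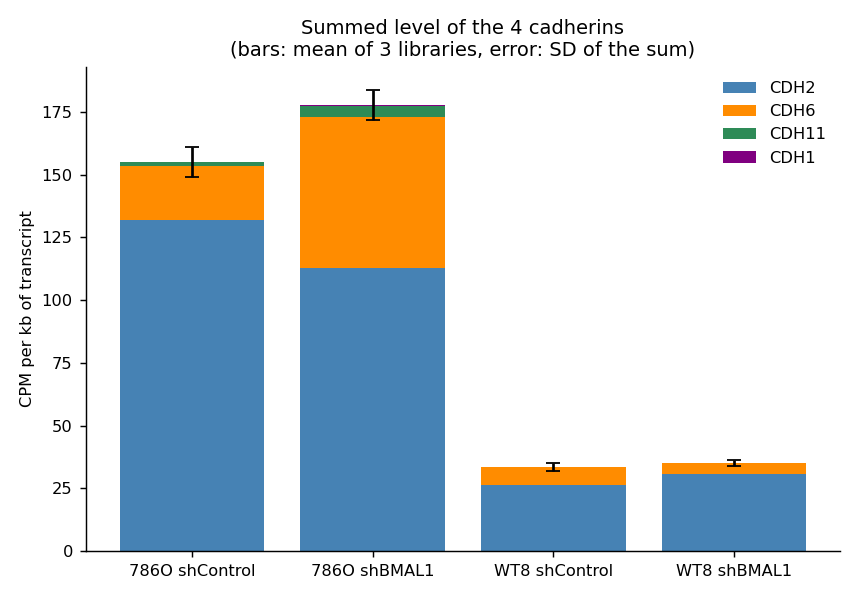
Summed level of CDH1, CDH2, CDH6 and CDH11 per group in CPM per kb of transcript, as stacked means of 3 libraries with the SD of the sum. CDH6 takes 34.0% of the bar in 786O shBMAL1 against 14.0% in 786O shControl, and both WT8 bars are near 34 to 35 CPM per kb.

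VIM (ENSG00000026025, chromosome 10, 17270240 to 17279592, plus strand) encodes vimentin, the main intermediate filament of mesenchymal cells and of many renal carcinomas. It had 157986, 149114 and 160751 counts in 786O shControl, 150880, 147712 and 147257 in 786O shBMAL1, 72424, 68450 and 69521 in WT8 shControl and 68426, 67002 and 69294 in WT8 shBMAL1. Both WT8 groups lay below both 786O groups, and within 786O the groups overlapped. WT8 shControl was 2.30-fold lower than 786O shControl, at 1948 ± 50.9 against 4481 ± 189.6 CPM (SD, n = 3; log2 -1.20, SE 0.04, edgeR adjusted p 1.28e-24). With shBMAL1 the log2 change was -0.07 in 786O (SE 0.04, edgeR adjusted p 0.17, not called) and -0.10 in WT8 (SE 0.04, edgeR adjusted p 0.0343). The WT8 call was lost when only the 2 WT8 groups were fitted (edgeR adjusted p 0.178) or without WT8 shBMAL1 replicate 2 (0.159), and 786O was called without 786O shControl replicate 2 (0.0572). VIM-AS1, on the opposite strand, overlaps the first 1778 bases of the VIM locus and had 37.1 to 45.9 counts per 100 counts of VIM in every library. Use of strand in counting is not given in the sources used here, so reads of VIM and VIM-AS1 cannot be told apart. With both counts added, an alternative chosen after seeing the data, the difference between the lines was -1.17.

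The transcription factors were all at low levels next to VIM. Per kb of transcript, the mean levels of SNAI1, SNAI2, ZEB1 and ZEB2 over the 4 groups lay between 3.69 and 11.5 CPM, against 845.8 to 2080.4 for VIM. TWIST1 (ENSG00000122691, chromosome 7, 19060614 to 19157259, minus strand), a basic helix-loop-helix factor of EMT, was listed at 0 in all 12 libraries, which allows up to 0.0875 CPM in the library with the highest limit.

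SNAI1 and SNAI2, which encode the zinc finger repressors Snail and Slug, rose with shBMAL1 in 786O and were not called with shBMAL1 in WT8. SNAI1 (ENSG00000124216, chromosome 20, 48599517 to 48605423, plus strand) had 292, 371 and 370 counts in 786O shControl, 520, 578 and 567 in 786O shBMAL1, 388, 285 and 340 in WT8 shControl and 391, 302 and 337 in WT8 shBMAL1. Its 786O shBMAL1 libraries were above the other 9, which overlapped between groups. The log2 change was 0.69 in 786O (SE 0.11, edgeR adjusted p 2.08e-06) and -0.03 in WT8 (SE 0.11, edgeR adjusted p 0.829), with an interaction of -0.72 (SE 0.15, edgeR adjusted p 0.000184). SNAI2 (ENSG00000019549, chromosome 8, 49830157 to 49834299, minus strand) had 541, 624 and 617 counts in 786O shControl, 882, 927 and 813 in 786O shBMAL1, 472, 326 and 483 in WT8 shControl and 466, 476 and 464 in WT8 shBMAL1. The 2 WT8 groups overlapped and lay below both 786O groups. The log2 change was 0.56 in 786O (SE 0.09, edgeR adjusted p 6.26e-06) and 0.08 in WT8 (SE 0.10, edgeR adjusted p 0.485), and the interaction was -0.48 (SE 0.14, edgeR adjusted p 0.0036). Between the lines with shControl SNAI2 was lower in WT8 (log2 -0.53, SE 0.10, edgeR adjusted p 9.76e-06), while SNAI1 was not called (log2 -0.08, SE 0.11, edgeR adjusted p 0.526).

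ZEB1 and ZEB2 encode zinc finger homeodomain repressors of epithelial genes, and they behaved differently from each other. ZEB1 (ENSG00000148516, chromosome 10, 31607424 to 31818742, plus strand) had 862, 790 and 826 counts in 786O shControl, 1113, 1015 and 1044 in 786O shBMAL1, 925, 917 and 831 in WT8 shControl and 1042, 1119 and 1198 in WT8 shBMAL1. It was higher with shBMAL1 in both lines without overlap, by 0.36 on the log2 scale in 786O (SE 0.08, edgeR adjusted p 0.000218) and by 0.27 in WT8 (SE 0.08, edgeR adjusted p 0.00201). The interaction of -0.08 (SE 0.11) was not called (edgeR adjusted p 0.544), and neither was the difference between the lines (log2 0.06, SE 0.08, edgeR adjusted p 0.472). ZEB1-AS1, which overlaps the start of ZEB1 on the opposite strand, had 10.5 to 22.0 counts per 100 counts of ZEB1, and with its counts added the changes were 0.35 and 0.20. ZEB2 (ENSG00000169554, chromosome 2, 145121931 to 145278624, minus strand) had 1828, 1674 and 1738 counts in 786O shControl, 1886, 1839 and 1807 in 786O shBMAL1, 1295, 1157 and 1243 in WT8 shControl and 2222, 2002 and 2153 in WT8 shBMAL1. The WT8 shControl libraries were the lowest and the other 3 groups overlapped with their neighbours in rank. ZEB2 rose with shBMAL1 in WT8 from 34.2 ± 0.888 to 56.7 ± 2.87 CPM (SD, n = 3; log2 0.73, SE 0.06, edgeR adjusted p 3.45e-13) and was not called in 786O (log2 0.08, SE 0.06, edgeR adjusted p 0.302). The interaction was 0.65 (SE 0.08, edgeR adjusted p 3.25e-08). In shControl ZEB2 was lower in WT8 than in 786O (log2 -0.55, SE 0.06, edgeR adjusted p 2.51e-10).

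With VHL present, in WT8 cells, depletion of BMAL1 was tested in the same way. Of the 10 genes, 5 were called, CDH2, ZEB1 and ZEB2 higher and CDH6 and VIM lower, beside 69.8% of all genes tested (32.9% higher and 36.9% lower). None of the 5 changed more than 2-fold, whereas 20.5% of all genes tested were called with a change over 2-fold. Groups were free of overlap for 6 of the 10 genes, CDH1 being the sixth, and for 67.6% of all genes tested. The effect of VHL and of other line differences was read from WT8 shControl against 786O shControl. It called 6 of the 10 genes, CDH2, CDH6, CDH11, VIM, SNAI2 and ZEB2, all lower in WT8, beside 79.5% of all genes tested (39.3% higher and 40.2% lower). These 6 genes also had groups without overlap, against 77.5% of all genes tested. Of these, CDH2, CDH6, CDH11 and VIM differed more than 2-fold, beside 32.1% of all genes tested. CDH11 is part of each of these counts, but it passed the filter on low counts through 786O libraries alone. It could therefore only come out lower in WT8. The interaction was called for 6 of the 10 genes, CDH2 and ZEB2 more positive in WT8 and CDH1, CDH6, SNAI1 and SNAI2 more negative, beside 56.0% of all genes tested (27.4% higher and 28.5% lower). The comparison between the lines shares the 786O shControl libraries with that of shBMAL1 in 786O. It also shares the WT8 shControl libraries, with opposite signs, with that of shBMAL1 in WT8. Each shBMAL1 effect shares all its libraries with the interaction, while the effects in 786O and in WT8 rest on separate libraries.

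**Figure D3:**
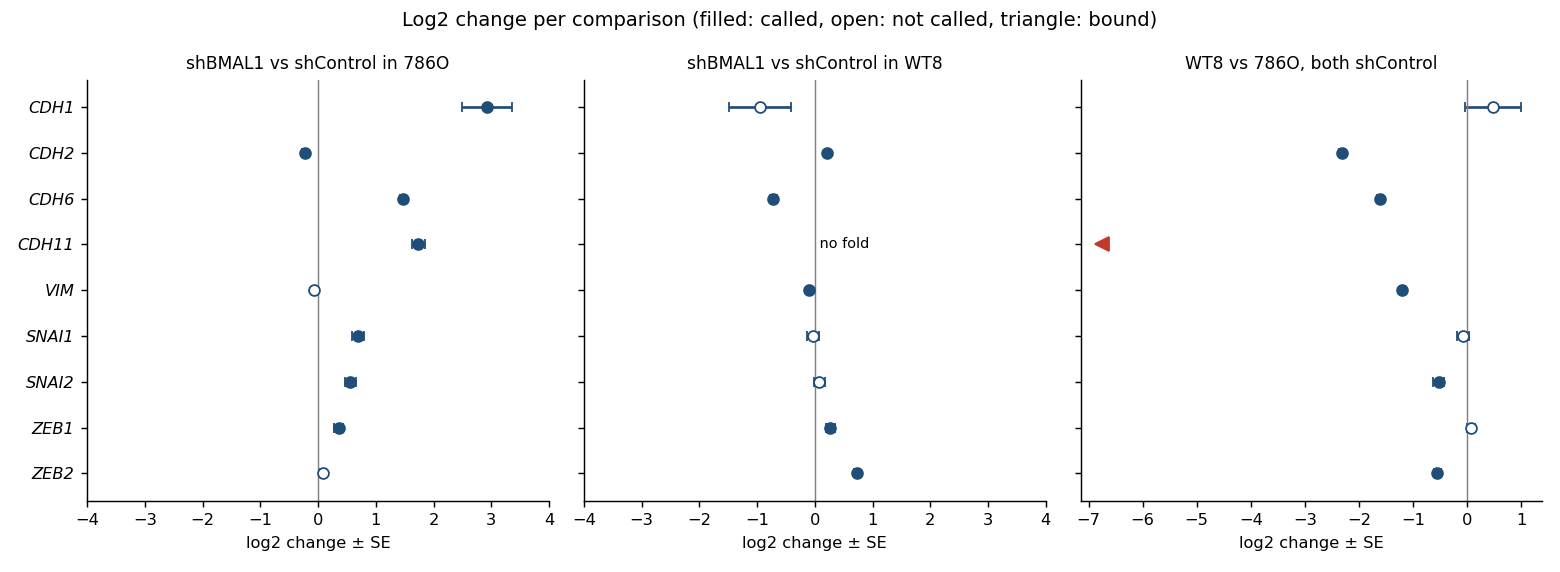
Log2 change ± SE of the 9 genes tested in the 3 comparisons of a pair of groups, with filled points for an adjusted p under 0.1, open points for genes not called and a triangle for the bound of CDH11. CDH1, CDH6, CDH11, SNAI1 and SNAI2 lie to the right of 0 in 786O, CDH6 lies to the left in WT8, and no gene called between the lines lies to the right.

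The genes whose pattern was most like that of a member were those at the smallest distance over the 3 fitted log2 changes, among 12947 genes with a mean of at least 50 counts. This is a description over 4 groups. For CDH6 the nearest was F2RL1, a protease-activated receptor gene, at a distance of 0.394 log2 units, with 1.49 in 786O, -0.51 in WT8 and -1.95 between the lines. ISYNA1, an inositol synthesis gene, was among the 3 nearest to CDH2, at 0.172. VIM lay nearest to FIS1 at 0.0155, a gene of mitochondrial fission, ZEB1 to UBE2G2 at 0.0356 and ZEB2 to ZDHHC2 at 0.0482. SNAI1 was closest to SSBP3 at 0.116, and SNAI2 to ZNF846 and RARA, both at 0.138. CDH11 had no close neighbour, the nearest being KYNU at 1.46, and its fitted values in WT8 rest on the floor. CDH1 had too few counts for this measure.

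Genes around the members were examined as lists written from general knowledge. The counts of every list stand beside the shares called over all genes tested. With shBMAL1 these were 24.5% higher and 24.4% lower in 786O and 32.9% higher and 36.9% lower in WT8. Between the lines they were 39.3% higher and 40.2% lower, and for the interaction 27.4% higher and 28.5% lower. All 41 genes of a list of other cadherins were in the table and 22 were tested. With shBMAL1 in 786O, 7 were called higher and 5 lower, in WT8 6 higher and 10 lower, between the lines 9 higher and 9 lower, and for the interaction 4 higher and 9 lower. Their median log2 changes were 0.04, -0.19, 0.10 and -0.31 in the same order, against 0.00, -0.04, 0.00 and -0.03 over all genes tested. CDH16, the kidney-specific cadherin of tubule epithelium, rose in 786O with shBMAL1 from 9.65 ± 0.418 to 19.1 ± 1.09 CPM and fell in WT8 from 73.6 ± 2.81 to 9.21 ± 1.38 CPM (SD, n = 3). Its interaction was -3.99 (SE 0.12, edgeR adjusted p 2.64e-25), the same signs as for CDH6, but it was higher and not lower in WT8 shControl (log2 2.93). CDH13, a GPI-anchored cadherin, fell in 786O from 73.8 ± 4.91 to 37.6 ± 1.17 CPM and was at 0.970 ± 0.0873 CPM in WT8 shControl. Its interaction of 0.79 was called, but at 0.44 without WT8 shBMAL1 replicate 2 it was not. CDHR1 and DSC2, a desmosomal cadherin, were at least 141-fold and at least 62.0-fold lower in WT8 shControl than in 786O shControl. FAT2, a giant protocadherin, rose with shBMAL1 in WT8 from 19.1 ± 0.987 to 67.5 ± 7.32 CPM, and DCHS1, another giant cadherin, rose in both lines (log2 1.07 and 1.03).

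Of 20 catenin and cadherin partner genes, 16 were tested. In 786O 5 were called higher and 8 lower, in WT8 5 higher and 9 lower, between the lines 5 higher and 9 lower, and for the interaction 4 higher and 5 lower, or 7 higher without WT8 shBMAL1 replicate 3. The medians were -0.19, -0.21, -0.15 and -0.03. JUP, which encodes plakoglobin, fell in 786O from 5.46 ± 0.69 to 2.61 ± 0.283 CPM (SD, n = 3) and had 0.356 ± 0.196 CPM in WT8 shControl. ARVCF, a catenin of the p120 family, fell in both lines with shBMAL1 (log2 -0.59 and -0.89). NECTIN1, whose product joins adherens junctions beside the cadherins, rose in both (log2 0.87 and 1.05).

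The list of 18 other EMT transcription factors had 14 genes tested. In 786O 4 were called higher and 3 lower, in WT8 3 higher and 8 lower, between the lines 6 higher and 5 lower, and for the interaction 1 higher and 10 lower. The 1 higher gene, TCF4, was lost when counts were halved and without WT8 shControl replicate 1, WT8 shControl replicate 3 or WT8 shBMAL1 replicate 2. The medians were 0.01, -0.53, 0.09 and -0.43. HMGA2, a chromatin protein that activates SNAI1 and TWIST1 in other cells, rose in 786O from 9.62 ± 0.388 to 26.8 ± 0.991 CPM (SD, n = 3; log2 1.48, SE 0.09, edgeR adjusted p 3.89e-16) and less in WT8 (log2 0.64, interaction -0.83, SE 0.12, edgeR adjusted p 3.71e-07). ETS1 fell in both lines (log2 -0.51 and -0.99). TCF4, an E-protein, and FOXC2 were lower in WT8 shControl than in 786O shControl, by log2 -5.91 and -3.46. FOXC1 and SOX9 were higher in the same comparison (log2 1.03 and 0.996).

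Of 39 epithelial genes, 31 were tested. In 786O 6 were called higher and 19 lower, in WT8 6 higher and 16 lower, between the lines 13 higher and 15 lower, and for the interaction 9 higher and 10 lower. The medians were -0.26, -0.49, 0.05 and -0.23. With shBMAL1 in 786O the tight junction gene CGN fell from 1.99 ± 0.0202 to 0.268 ± 0.191 CPM (SD, n = 3) and CRB3, a polarity gene, from 9.14 ± 0.576 to 3.84 ± 0.666 CPM, while KRT18 and MAL2 rose (log2 0.50 and 0.55). In WT8 CD24 fell from 1038 ± 24.8 to 146.2 ± 4.45 CPM (log2 -2.83, SE 0.04, edgeR adjusted p 5.59e-34). AP1M2 and ST14 rose with shBMAL1 in WT8 (log2 1.24 and 1.14). Between the lines KRT19 went from 184.1 ± 7.68 CPM in 786O shControl to 0.417 ± 0.0426 in WT8 shControl, and EPCAM was at least 111-fold lower in WT8. In the same comparison MAL2 was higher in WT8 (log2 3.68), as was TJP3 (log2 6.07). TJP3 was at 0.0669 ± 0.0659 CPM in 786O shControl, a mean under the floor of 3 counts, so the size of its change is uncertain. EPCAM also stood among the 9 genes higher for the interaction (edgeR adjusted p 0.0827), a call that rests on 0 to 5 counts in each WT8 library and was lost when counts were halved.

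The mesenchymal list had 34 of 39 genes tested. In 786O 13 were called higher and 9 lower, in WT8 13 higher and 17 lower, between the lines 8 higher and 24 lower, and for the interaction 10 higher and 16 lower. The medians were 0.08, -0.31, -1.04 and -0.20. COL6A3, a collagen VI chain, went from 579.6 ± 79.9 CPM in 786O shControl to 1.95 ± 0.402 in WT8 shControl (SD, n = 3), and FBN1, the microfibril protein fibrillin, from 16.3 ± 2.95 to 0.361 ± 0.0422 CPM. BGN and S100A4 were higher in WT8 shControl (log2 4.27 and 3.93) and fell there with shBMAL1 (log2 -4.46 and -2.68). In 786O CNN1, a smooth muscle calponin, rose with shBMAL1 from 1.51 ± 0.151 to 7.39 ± 0.181 CPM, while COL5A2 and COL1A1 fell (log2 -1.18 and -1.15). LUM, a matrix proteoglycan, rose in 786O (log2 1.45) and in WT8 (log2 3.80), where it went from 0.515 ± 0.198 to 7.23 ± 0.161 CPM.

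**Figure D4:**
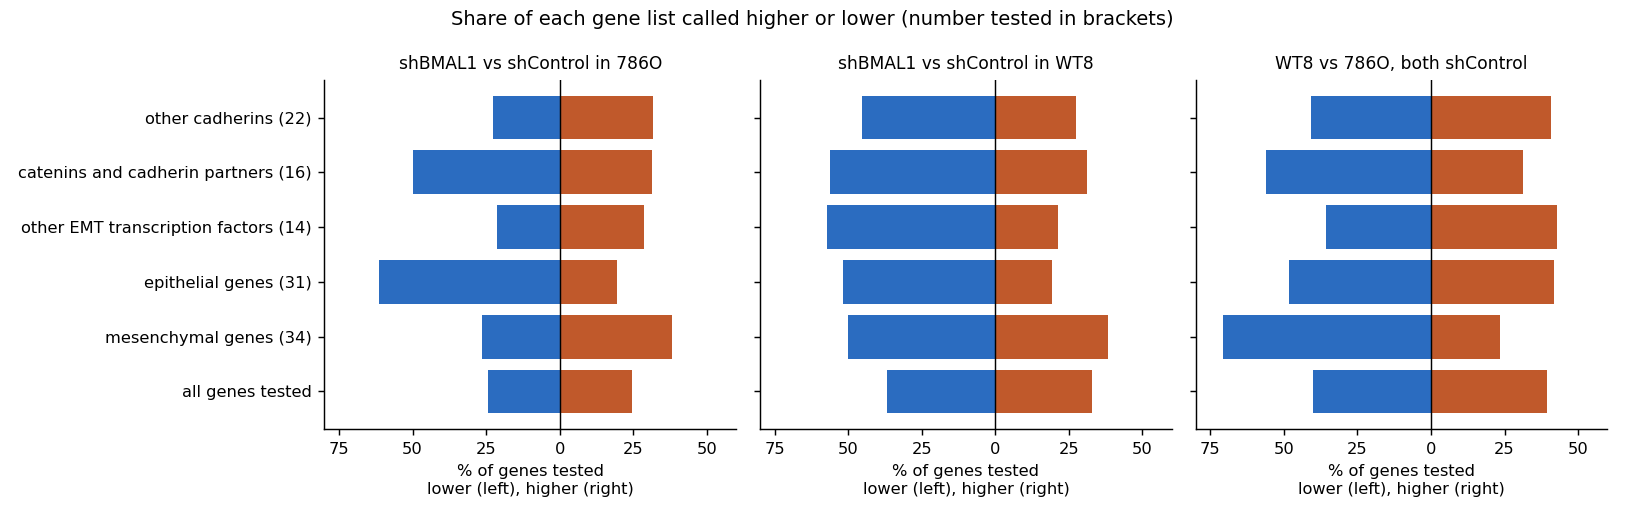
Share of the genes tested in each of 5 lists that was called higher (right) or lower (left) in the 3 comparisons of a pair of groups, with all 16838 genes tested at the bottom. The longest bars to the left are those of the epithelial genes in 786O, 19 of 31, and of the mesenchymal genes between the lines, 24 of 34.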

How the data were processed

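Stranded mRNA libraries from column-purified RNA were sequenced by BGI as paired reads. According to the methods of the study, reads were aligned to GRCh37 with SeqMan NGen and counts were exported from ArrayStar, whereas the submitters' processing notes name STAR, DESeq2 and hg38. Which of the pipelines made the table, the annotation, the use of strand and the handling of reads with several alignments are not given in the sources used here.

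The values were estimated counts per gene as deposited by the authors, not scaled between libraries. Zeros were written as 0.028 (47.0% of all values), and 5.42% of the remaining values were not whole. These entries were returned to 0, 45 names on 98 lines were summed, and values were rounded. Counts of 2 (14904) outnumbered counts of 1 (11312), and halved counts were therefore fitted as an alternative. Limits and floors cover counting error only.

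Genes were filtered with filterByExpr (16838 of 26925 genes with a count kept), scaled by TMM (factors 0.948 to 1.04) and fitted over all 12 libraries with a mean per group with the robust quasi-likelihood test of edgeR 4.0.16 in R 4.3.3. The Benjamini-Hochberg adjustment covered every gene tested, with calls at an adjusted p under 0.1, the study's threshold. The SE was taken as the size of the log2 change over the root of F. The model was tested on simulated data. A fold against a group with at most 3 counts in each library is a bound. Replicates of a group differed by more than counting error (chi-square per gene 4.51 to 12.6). Positions are from GENCODE 44 on GRCh37.

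The members, lists and rules were chosen with earlier results of these data known. The genes named beyond the members are ARNTL and VHL, the nearest genes in pattern, and from each list and comparison at most 2 rises and 2 falls, the largest among genes called, averaging 50 counts or more and, between groups, without overlap. Genes overlapping a member's locus are named where counted. Alternatives were RLE scaling, DESeq2 1.42.0, no filter, fewer groups, halved counts, a replicate block, other thresholds and leaving out each library. A renal tubule marker, the sum over that marker list and a gene near CDH2 in pattern are not reported here.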

Additional observations from a re-analysis of the deposited data

Results flagged for a closer look

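The change with shBMAL1 differed between 786O and WT8, by the interaction test of edgeR, for 6 of the 10 genes. The differences, as the log2 change in WT8 minus that in 786O, were -3.88 for CDH1, -2.19 for CDH6, -0.72 for SNAI1, -0.48 for SNAI2, 0.45 for CDH2 and 0.65 for ZEB2. For CDH6 and CDH2 the changes were called in both lines with opposite signs. For CDH1, SNAI1 and SNAI2 the change was called in 786O alone, and for ZEB2 in WT8 alone. CDH11 was left out because WT8 was at or under 3 counts in every library. Of all genes tested, 56.0% were called in this test. ARNTL itself fell more in WT8 than in 786O (interaction -0.86, SE 0.19, edgeR adjusted p 0.000369). The part of this unequal depletion in the differences was not tested.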

How the results depend on the processing

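Of 645 refitted log2 changes of the members, 5 crossed the threshold, those of CDH1 and VIM given above and below, and 5 others changed sign, each when 1 library was left out and none of them called. With 1 library left out, the change of SNAI1 in WT8 ran from -0.124 to 0.0618, that of SNAI2 in WT8 from -0.0525 to 0.165 and the interaction of VIM from -0.0443 to 0.0141. The fitted interaction of CDH11, for which no fold in WT8 can be given, ran from -1.73 to 1.38. Requiring a fold change over 1.5 moved the counts of genes called from 8237 to 2409 for shBMAL1 in 786O, from 11753 to 6037 for shBMAL1 in WT8, from 13378 to 8312 between the lines and from 9427 to 4932 for the interaction. The counts of members went from 7 to 4 in 786O, from 5 to 2 in WT8, from 6 to 4 between the lines and from 6 to 4 for the interaction. Leaving out 1 library gave 7 to 8 members in 786O, 4 to 6 in WT8, 6 to 7 between the lines and 6 for the interaction. Replicate numbers did not pair the libraries (correlation of deviations from -0.0966 to 0.0872 over 18 pairs), and with the replicate block 8055, 11622, 13268 and 9246 genes were called and the member counts were 7, 5, 6 and 6. The list results were recomputed under alternatives chosen after seeing the data. Without 786O shControl replicate 1, CDH1 was also called with shBMAL1 in WT8 (log2 -0.95, edgeR adjusted p 0.0977). Depth limits what can be read from the few counts of CDH1 in WT8 and 786O shControl and of CDH11 in WT8. TWIST1 had 0 counts in every library, and the part of depth in this was not tested.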

Other observations

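ZEB1-AS1 had 114, 125 and 114 counts in 786O shControl, 139, 136 and 165 in 786O shBMAL1, 180, 129 and 183 in WT8 shControl and 141, 118 and 153 in WT8 shBMAL1. Its log2 change with shBMAL1 was 0.32 in 786O (SE 0.16, edgeR adjusted p 0.108) and -0.31 in WT8 (SE 0.16, edgeR adjusted p 0.0801), with an interaction of -0.63 (SE 0.22, edgeR adjusted p 0.0182), where that of ZEB1 was -0.08. The WT8 groups overlapped. VIM-AS1 was lower in WT8 between the lines, as VIM was (log2 -1.11, SE 0.05, edgeR adjusted p 3.51e-22). Reads of VIM and VIM-AS1 cannot be told apart, so this is not an independent observation. With shBMAL1 in WT8 VIM-AS1 was lower (log2 -0.17, SE 0.04, edgeR adjusted p 0.000934). Its interaction of -0.14 was called (SE 0.06, edgeR adjusted p 0.0544), where that of VIM was -0.03 and not called.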
